A study of Mus musculus with 46 samples.

Results

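Igf2r and its antisense noncoding RNA Airn are described here in the dorsal raphe nucleus, the main serotonin nucleus of the brain stem, of female hybrids between the C57 and CAST mouse strains, as 2 of the 15499 genes counted. Both were found by Ensembl identifier, Igf2r as ENSMUSG00000023830 and Airn as ENSMUSG00000078247. The 46 libraries fall into 6 groups, with 7 of cross F1i and 7 of cross F1r at postnatal day 5 (P5), 7 and 7 at P15, and 9 and 9 in adults. F1i and F1r are the reciprocal crosses, so each library holds 1 C57 and 1 CAST copy of every autosomal gene, and the crosses differ in which copy came from the mother. Which strain the mothers of F1i belonged to is not in the labels. The labels name no treatment or engineered allele, and the adult age is not given as a number. The deposited values are read counts for each gene and allele. CPM below means counts per 1000000 counts of the library, and "CAST share" the CAST percent of a gene's counts on both alleles. Library totals ran from 3692778 to 13085952 counts, so CPM of a gene with few counts is coarse.

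Igf2r encodes the cation-independent mannose 6-phosphate receptor, which carries newly made lysosomal enzymes from the Golgi to lysosomes and takes the growth factor IGF2 from the cell surface to lysosomes for degradation. In most mouse tissues Igf2r is transcribed from the maternal chromosome. Airn starts in an Igf2r intron on the paternal chromosome, where maternal germline DNA methylation is lacking, and is transcribed in the antisense direction across the Igf2r promoter, which silences the paternal Igf2r copy. Cultured mouse glia are known to follow that pattern, whereas cultured mouse neurons are known to use both Igf2r copies and to lack Airn. A bulk tissue holds both kinds of cell.

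The 2 start regions are shown because antisense transcription runs from one to the other. Both are the RefSeq promoter windows of build GRCm38.p6, from 250 bases before to 50 bases after the start, and neither was used to make or select a count. The Igf2r window is chr17:12769657-12769956 on the minus strand, and the Airn window is chr17:12741061-12741360 on the plus strand. In the Igf2r sequence capitals mark CACGTG, an E-box that reads the same on both strands. In the Airn sequence capitals mark CG, the dinucleotide that carries DNA methylation.

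Igf2r: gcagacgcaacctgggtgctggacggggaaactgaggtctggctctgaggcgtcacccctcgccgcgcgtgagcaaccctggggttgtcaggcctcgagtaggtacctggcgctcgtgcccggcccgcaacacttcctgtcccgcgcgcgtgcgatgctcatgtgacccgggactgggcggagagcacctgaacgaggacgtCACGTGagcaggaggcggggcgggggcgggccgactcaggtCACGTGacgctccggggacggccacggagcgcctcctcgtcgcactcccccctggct

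Airn: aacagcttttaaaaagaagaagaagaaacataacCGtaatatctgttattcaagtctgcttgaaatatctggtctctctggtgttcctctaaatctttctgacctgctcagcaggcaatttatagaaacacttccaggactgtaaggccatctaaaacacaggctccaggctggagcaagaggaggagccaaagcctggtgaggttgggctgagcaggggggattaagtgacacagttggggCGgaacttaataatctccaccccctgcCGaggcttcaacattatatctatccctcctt

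The Igf2r window held 34 CG dinucleotides and was 70.7% G or C, and 7.73% of 32851 RefSeq promoter windows of the same length held as many or more CG. The Airn window held 3 CG and was 45.7% G or C, below the median of 7 CG. It ends 50 bases after the start, so CG further downstream were not counted. The count therefore does not describe the methylated region as a whole. CACGTG occurred 2 times in the Igf2r window and 0 times in the Airn window, and 7.15% of all windows held it. E-boxes of this form are known from promoters of lysosomal genes. Of 27 lysosomal hydrolase genes with a window, 9 (33.3%) had CACGTG, against 8.09% of 27025 genes. A match of letters describes the sequence and does not show binding.

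In the GENCODE M21 annotation of GRCm38 the gene spans of Igf2r and Airn share 28354 bases, while their annotated exons share 0 bases. The gene starts in that annotation lie 28353 bases apart. Igf2r has 9308 exon bases and Airn 3597. The gene models and the strand setting behind the deposited counts are not given in the sources used here. Reads of unspliced Airn over Igf2r exons could therefore not be told apart from Igf2r reads.

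The question the reciprocal design answers for these genes is whether an allele's share follows the strain or the parent it came from. Meg3, a noncoding RNA known to be maternally expressed, was read first because it shows which allele behaves as maternal in each cross. Of its summed counts, 99.3% were CAST in F1i and 0.147% in F1r at P5, 99.0% and 0.371% at P15, and 99.0% and 0.131% in adults. Peg3, known to be paternally expressed, had the mirror pattern, with 0.192% CAST in F1i and 99.4% in F1r at P5. The allele that carries Meg3 in a cross, CAST in F1i and C57 in F1r, is called the Meg3-side allele here.

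Airn came almost entirely from the allele opposite to Meg3 at all 3 ages. At P5 all 91 Airn counts in F1i were C57, and all 132 in F1r were CAST. At P15 the CAST allele had 4 of 200 Airn counts in F1i and 238 of 239 in F1r. In adults it had 1 of 269 in F1i and 392 of 392 in F1r. With a floor of 3 counts over a group standing in for the empty allele, Airn was at least 30.3-fold higher on C57 than on CAST in F1i at P5. It was at least 44.0-fold higher on CAST than on C57 in F1r at P5 and at least 131-fold higher there in F1r adults. Where 1 count was seen, the ratio was 238 in P15 F1r (95% counting interval 42.3 to 9440) and 268 in adult F1i (47.7 to 10624).

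By library, the CAST share of Airn had a lowest value, median and highest value of 0% in P5 F1i, against 100% in P5 F1r. In P15 F1i it ran from 0% over a median of 0% to 4.76%, against 97.1% over 100% to 100% in P15 F1r. In adult F1i it ran from 0% over a median of 0% to 3.23%, against 100% throughout adult F1r. The groups were fully apart at each age, with differences of -100, -97.8 and -99.6 percentage points from P5 to adult (F1i minus F1r). A two-sided exact permutation test over libraries gave p = 0.000583 at P5, 0.000583 at P15 and 4.11e-05 in adults, and Benjamini-Hochberg adjusted values of 0.000583, 0.000583 and 0.000123 over a family of 6 with Igf2r.

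Igf2r leaned to the Meg3-side allele in both crosses, and every library had counts of both alleles. At P5 its CAST share had a lowest value of 53.0%, a median of 58.8% and a highest of 61.6% in F1i, against 30.6%, 38.9% and 43.8% in F1r. At P15 the values were 49.3%, 54.5% and 62.1% in F1i, against 29.1%, 37.6% and 38.9% in F1r. In adults they were 45.3%, 53.9% and 58.5% in F1i, against 36.7%, 37.8% and 44.0% in F1r. F1i stood above F1r without overlap at each age, although 1 F1i library at P15 and 2 in adults had under 50%.

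The mean CAST share of Igf2r was 58.5% ± 2.68 in F1i and 38.3% ± 4.35 in F1r at P5 (SD, n = 7 each), a difference of 20.2 percentage points. It was 55.4% ± 4.66 in F1i and 35.5% ± 3.56 in F1r at P15 (n = 7 each), a difference of 19.9 points. In adults it was 53.7% ± 4.25 in F1i and 39.3% ± 3.03 in F1r (n = 9 each), a difference of 14.4 points. The exact permutation p was 0.000583, 0.000583 and 4.11e-05 from P5 to adult, and 0.000583, 0.000583 and 0.000123 after adjustment over the same family of 6. Over summed counts, the Meg3-side allele had 1.43 times the counts of the other allele in F1i and 1.62 times in F1r at P5, 1.22 and 1.78 times at P15, and 1.17 and 1.55 times in adults. Sampling of the counts alone would give an SD of 3.62 in F1i and 3.76 in F1r at P5, 4.16 and 4.43 at P15, and 3.21 and 3.17 in adults. The observed SDs lay between 2.68 and 4.66.

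**Figure D1:**
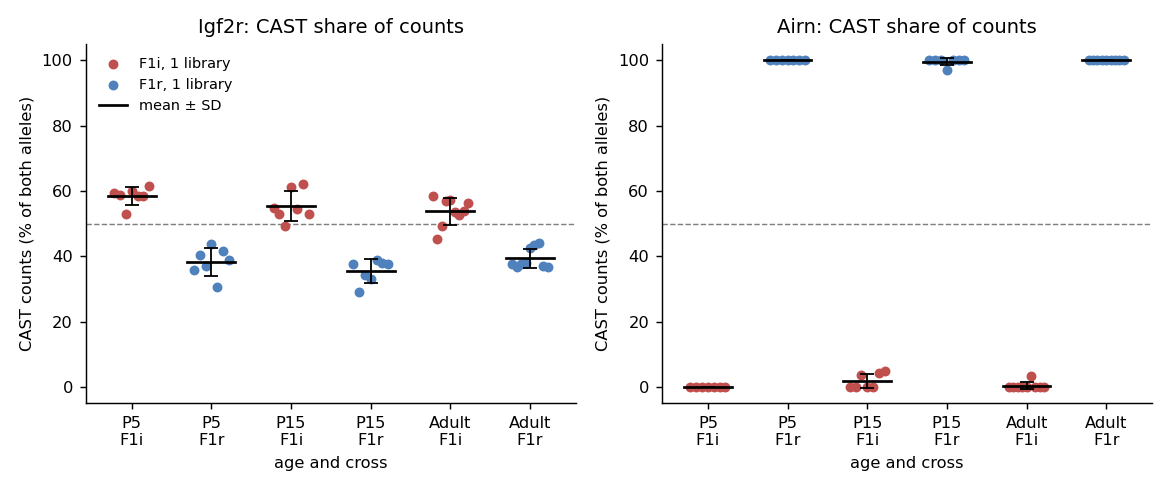
CAST share of Igf2r (left) and Airn (right) counts, in percent of both alleles, for each library of F1i and F1r at P5, P15 and in adults. Points are libraries, the bar is the mean and the whiskers 1 SD, and the dashed line marks equal alleles. Airn sits at or near 0% in F1i and 100% in F1r, while Igf2r means lie between 53.7% and 58.5% in F1i and between 35.5% and 39.3% in F1r.

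A model over all genes separated the parental from the strain component. It used edgeR's quasi-likelihood fit, in which each library has its own term. The parental effect is the log2 ratio of the Meg3-side over the other allele averaged over the crosses, and positive values mean that the allele side of Meg3 is higher. For Igf2r it was 0.60 ± 0.06 at P5 (SE, edgeR adjusted p = 2.69e-11) and 0.56 ± 0.07 at P15 (adjusted p = 1.5e-08). The adult value was 0.43 ± 0.05 (adjusted p = 1.45e-08). At an adjusted p of 0.05, the share of all genes tested that was called was 2.71% at P5 (2.34% toward the Meg3 side, 0.365% toward the other), 0.742% at P15 (0.458% and 0.283%) and 2.71% in adults (2.26% and 0.45%). Among genes called toward the Meg3 side, 27 of 283 had a larger effect than Igf2r at P5. At P15 these were 26 of 55, and in adults 32 of 287. X-linked genes are among those called, and the genes of a library's X chromosomes share its X balance.

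Airn passed the same test in the opposite direction at P15 (edgeR adjusted p = 8.42e-25) and in adults (adjusted p = 2.79e-20). At P5 its counts were under the minimum mean count of 20, and without that minimum its edgeR adjusted p was 5.03e-27. Fitted effects of Airn rest on alleles at or near 0 counts and depend on the prior count, so the counts and bounds above give its size.

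The strain component of Igf2r was smaller than the parental one. Averaged over the crosses, the log2 CAST over C57 ratio was -0.09 ± 0.06 at P5 (SE, edgeR adjusted p = 0.194), -0.27 ± 0.07 at P15 (adjusted p = 0.000497) and -0.20 ± 0.05 in adults (adjusted p = 0.000274). Lower CAST than C57 counts thus passed the test at P15 and in adults, where 58.4% and 67.8% of all genes were called for a strain effect in either direction. At P5 58.4% of genes were called and Igf2r was not. The strain effect moved by -0.18 ± 0.09 in P15 against P5, by 0.07 ± 0.08 in adults against P15 and by -0.11 ± 0.08 in adults against P5. None of these changes passed (edgeR adjusted p = 0.17, 0.631 and 0.293), while 18.7%, 15.5% and 29.6% of genes were called for them.

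No change of the Igf2r lean with age passed the test. The parental effect differed by -0.04 ± 0.09 in P15 against P5 (SE, edgeR adjusted p = 1), by -0.14 ± 0.08 in adults against P15 (adjusted p = 0.963) and by -0.17 ± 0.08 in adults against P5 (unadjusted p = 0.0231, adjusted p = 0.967). For these changes 0.153%, 0.129% and 0.241% of genes were called. As a share, the Meg3-side allele had 60.1% ± 3.84 of Igf2r counts at P5 (SD, n = 14), 59.9% ± 6.18 at P15 (n = 14) and 57.2% ± 5.05 in adults (n = 18). The difference of adults and P5 was -2.90 points, with a two-sided permutation p of 0.0846, or 0.198 adjusted over 6 age contrasts of both genes. In F1i alone it was -4.77 points (permutation p = 0.014, adjusted p = 0.084), and in F1r alone -1.03 points (permutation p = 0.592).

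**Figure D2:**
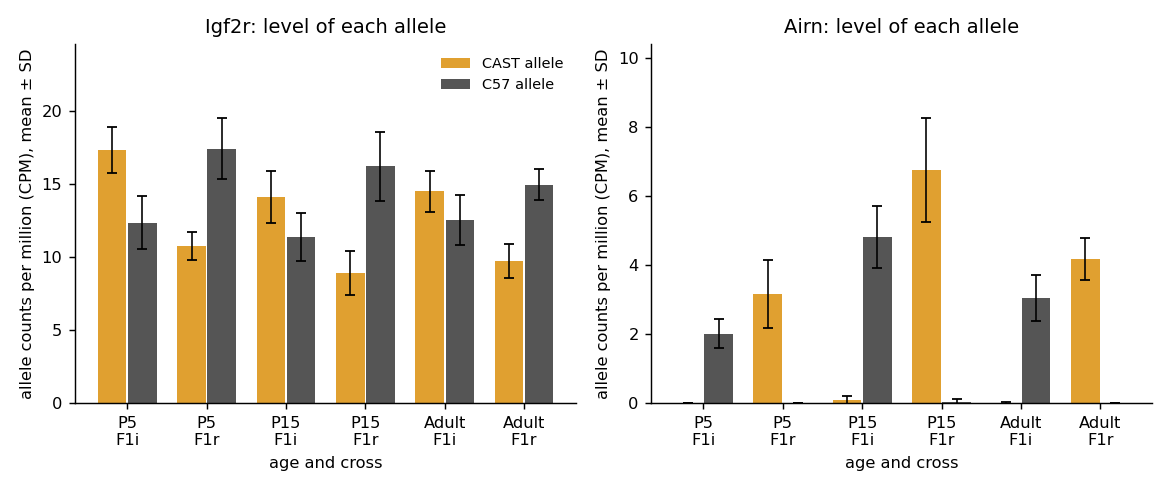
Level of the CAST and C57 alleles of Igf2r (left) and Airn (right) in CPM of the whole library, as mean with 1 SD whiskers over the libraries of each cross and age. The taller Igf2r bar is CAST in F1i and C57 in F1r, the Airn bars change places the other way, and the minor Airn allele has a mean of at most 0.0888 CPM.

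By allele, the Meg3-side copy of Igf2r averaged 17.4 ± 1.78 CPM at P5, 15.2 ± 2.28 at P15 and 14.8 ± 1.23 in adults (SD, n = 14, 14 and 18). The other copy averaged 11.6 ± 1.63, 10.2 ± 1.98 and 11.2 ± 2.05 CPM. The other copy, which carries Airn, therefore had Igf2r counts in each library, the lowest being 6.23 CPM in 1 P15 library. In bulk tissue, a low level in many cells and a high level in few cells cannot be told apart, nor can fewer cells of a type and less RNA per cell.

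Summed over alleles, Igf2r differed little between ages, whereas Airn peaked at P15. Igf2r had a lowest, median and highest level of 26.6, 30.5 and 34.2 CPM in P5 F1i, against 26.0, 27.9 and 30.9 CPM in P5 F1r. The values were 22.02, 26.2 and 28.2 CPM in P15 F1i, against 21.4, 24.1 and 29.97 CPM in P15 F1r, and 22.6, 28.1 and 28.9 CPM in adult F1i, against 21.4, 24.8 and 27.1 CPM in adult F1r. All 6 groups overlap. Its level was above that of 56.0% of genes at P5, 53.1% at P15 and 54.0% in adults, on the CPM scale, which is not corrected for length.

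Igf2r was lower in P15 than in P5 by a log2 difference of -0.22 ± 0.06 (SE, edgeR adjusted p = 0.000532) and lower in adults than in P5 by -0.14 ± 0.05 (adjusted p = 0.0116). In F1i alone the adult difference from P5 was -0.12, with an edgeR adjusted p of 0.139. Adults differed from P15 by 0.08 ± 0.05 (adjusted p = 0.173). Most genes passed these tests, 83.4% in P15 against P5, 74.7% in adults against P15 and 82.1% in adults against P5.

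Airn had a lowest, median and highest level of 1.39, 1.86 and 2.74 CPM in P5 F1i, against 2.14, 2.89 and 5.0003 CPM in P5 F1r. The values were 3.71, 4.73 and 6.29 CPM in P15 F1i, against 4.87, 6.91 and 9.37 CPM in P15 F1r. In adults they were 2.30, 3.07 and 4.08 CPM in F1i, against 2.93, 4.14 and 4.96 CPM in F1r. Within each cross P15 lies above P5 with no overlap in F1i and with overlap in F1r. The edgeR log2 difference was 1.16 ± 0.12 in P15 against P5 (SE, adjusted p = 2.73e-12), -0.63 ± 0.10 in adults against P15 (adjusted p = 2.24e-07) and 0.53 ± 0.12 in adults against P5 (adjusted p = 5.1e-05). Airn thus rose to P15 and then fell, staying above its P5 level in adults, and each step passed in F1i alone and in F1r alone.

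**Figure D3:**
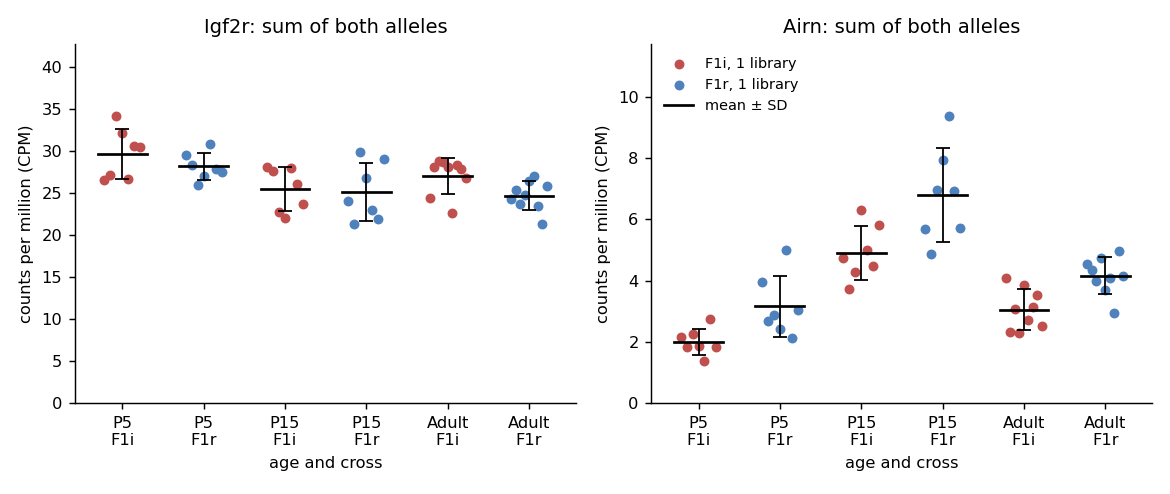
Level of Igf2r (left) and Airn (right) summed over both alleles, in CPM, for each library of F1i and F1r at P5, P15 and in adults, with the mean and 1 SD. Igf2r group means lie between 24.7 and 29.7 CPM, and Airn means are highest at P15, 4.90 CPM in F1i and 6.78 CPM in F1r.

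Airn was lower in F1i than in F1r at each age on average, without passing the test over all genes. Its mean was 2.01 ± 0.426 CPM in F1i and 3.16 ± 0.994 CPM in F1r at P5, 4.90 ± 0.892 and 6.78 ± 1.53 CPM at P15 (SD, n = 7 each), and 3.06 ± 0.655 and 4.16 ± 0.606 CPM in adults (n = 9 each). The edgeR log2 difference of F1i and F1r was -0.65 ± 0.20 at P5 (SE, unadjusted p = 0.00204, adjusted p = 0.112), -0.44 ± 0.15 at P15 (unadjusted p = 0.00961, adjusted p = 1) and -0.47 ± 0.13 in adults (unadjusted p = 0.00135, adjusted p = 0.215). The expressed copy is C57 in F1i and CAST in F1r, so a difference between crosses and a difference between the strains' Airn copies cannot be told apart. In adults with libraries of the same first label number summed, the difference was -0.49 with an edgeR adjusted p of 0.0443. That setting called many more genes than the main fit, as given below.

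Igf2r totals did not pass between crosses at any age. The F1i against F1r log2 differences from P5 to adult were 0.09 ± 0.06, 0.04 ± 0.11 and 0.14 ± 0.06 (SE, edgeR adjusted p = 0.705, 1 and 0.483). Few genes passed this test, 1.17% at P5, 0.0467% at P15 and 0.111% in adults. The adult count of calls was 15, and 77 with the second label number as a block, with no call of Igf2r or Airn in either. Changes of the cross difference with age passed for neither gene (edgeR adjusted p of 0.979 or more), and 0.0147%, 0.0367% and 0% of genes were called for them.

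Markers of several cell types were higher at P15 than at P5 and lower in adults than at P15, as Airn was, those of oligodendrocytes and microglia among them. Over all genes tested, 42.5% rose and 40.9% fell in P15 against P5, 37% rose and 37.7% fell in adults against P15, and 40.6% rose and 41.5% fell in adults against P5. Of 11 oligodendrocyte markers tested, 11 rose and 0 fell in P15 against P5, 1 rose and 8 fell in adults against P15, and 11 rose and 0 fell in adults against P5, with median log2 changes of 3.84, -1.01 and 2.27 against 0.022, -0.009 and -0.005 over all genes. Of 12 listed markers, 11 were in the table and none was at 0, Opalin having the lowest level at 0.170 CPM at P5. Their summed level ran from 1845 to 2190 CPM in F1i and from 2479 to 3094 CPM in F1r at P5, from 18335 to 32304 and from 23266 to 30851 CPM at P15, and from 7946 to 9605 and from 8909 to 12140 CPM in adults. Between crosses at P5, 0 of 10 tested markers rose and 9 fell in F1i against F1r, with a median log2 difference of -0.486. Among them Mbp and Mobp, which encode myelin proteins, fell by 0.47 and 0.75. Of all genes tested, 1.17% were called between crosses at P5 in either direction. At P15 and in adults the summed marker levels of the 2 crosses overlapped. The part of oligodendrocyte markers in the Airn levels was not tested.

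**Figure D4:**
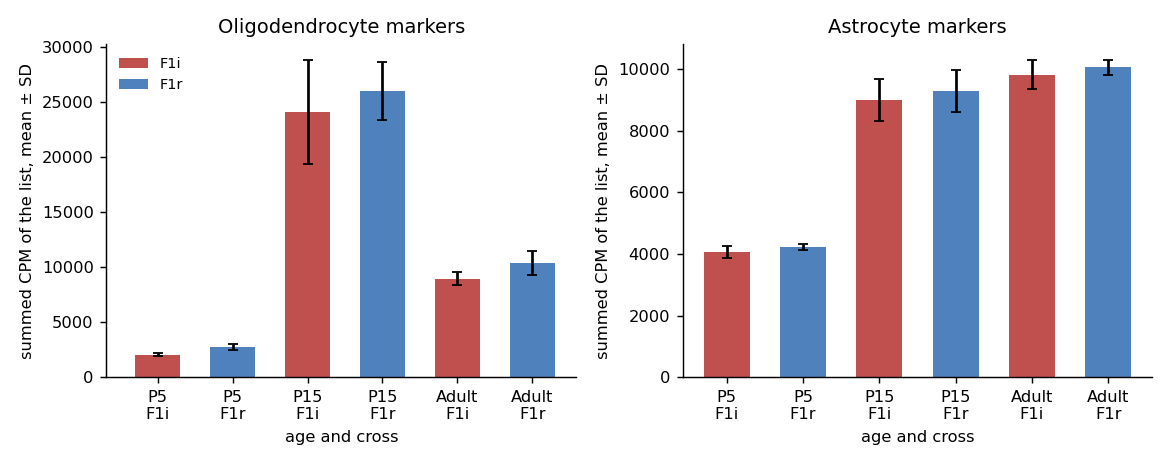
Summed level of oligodendrocyte markers (left) and astrocyte markers (right) in CPM, as mean with 1 SD whiskers over the libraries of each cross and age. Oligodendrocyte means are highest at P15, at 24075 CPM in F1i and 25992 CPM in F1r, while astrocyte means are 9820 and 10064 CPM in adults, above P15.

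The other marker lists were counted against the same shares of all genes. Of 11 astrocyte markers tested, 8 rose and 2 fell in P15 against P5, and 8 rose and 3 fell in adults against P15. Their summed level was 3899 to 4506 CPM in F1i and 4022 to 4346 CPM in F1r at P5, 8395 to 10217 and 8210 to 10145 CPM at P15, and 9275 to 10767 and 9651 to 10283 CPM in adults. Of 8 microglial markers, 8 rose in P15 against P5, and 1 rose and 6 fell in adults against P15. Their summed level was 267 to 307 CPM in F1i and 288 to 319 CPM in F1r at P5, 493.1 to 571.7 and 555.6 to 634.2 CPM at P15, and 385.8 to 520.3 and 408.6 to 481.8 CPM in adults. The adult range lay below that at P15 in F1r and overlapped it in F1i. Of 8 oligodendrocyte precursor markers, 3 rose and 4 fell in P15 against P5, and 0 rose and 8 fell in adults against P15. Of 3 blood markers tested, 2 rose and 0 fell in P15 against P5, and 0 rose and 3 fell in adults against P15. The part of these markers in the Airn levels was not tested. Of 12 neuronal markers, 3 rose and 7 fell in P15 against P5, and 7 rose and 2 fell in adults against P15. Of 11 endothelial and mural markers, 5 rose and 6 fell in P15 against P5, and 1 rose and 8 fell in adults against P15. Serotonergic markers were counted at each age, and they did not move together. Tph2, the neuronal serotonin synthesis enzyme, had a mean of 103 CPM at P5, 559 CPM at P15 and 531 CPM in adults. Means of Slc6a4, Ddc, Maob, Gch1 and Htr1a were likewise higher at P15 than at P5. Those of Fev, Lmx1b, Gata2, Gata3 and En1 were lower at P15 than at P5.

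The genes whose levels were most like Airn over the 46 libraries, among 9940 genes of mean CPM 10 or more, were Mcam (r = 0.843), Cldn11 (r = 0.816), Enpp2 (r = 0.811), Map2k4 (r = 0.81) and Arfip1 (r = 0.808). Cldn11, a claudin of the myelin sheath, is one of the oligodendrocyte markers above, and Mcam encodes a cell adhesion protein of vessel walls. For Igf2r they were Bicd2 (r = 0.737), Ep300 (r = 0.7), Ank3 (r = 0.69), Pcnx (r = 0.688) and Cox10 (r = 0.685). Bicd2 encodes an adaptor of dynein, Ep300 a histone acetyltransferase and Ank3 ankyrin G of the axon initial segment. These coefficients are across libraries that share age groups, and they describe likeness of level alone.

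Counts of Airn were set against those of Igf2r on the allele that carries Airn. Airn counts per 100 Igf2r counts of that allele averaged 16.4 ± 3.29 in F1i and 30.1 ± 11.9 in F1r at P5, 43.8 ± 14.7 and 76.5 ± 17.3 at P15 (SD, n = 7 each), and 24.9 ± 7.59 and 43.7 ± 10.5 in adults (n = 9 each). The measure was highest at P15 in both crosses. It is not corrected for length, so it serves to compare groups and does not rank the genes.

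Whether libraries with more Airn lean further was examined within ages, with cross means removed. The Meg3-side share of Igf2r correlated with log2 CPM of Airn with Pearson r = 0.543 at P5 (permutation p = 0.0449, adjusted p = 0.0674, n = 14), r = 0.004 at P15 (permutation p = 0.989, adjusted p = 0.989, n = 14) and r = 0.522 in adults (permutation p = 0.0258, adjusted p = 0.0674, n = 18). None passed after adjustment over the 3 ages. Spearman rho was 0.411 at P5 (permutation p = 0.144), -0.081 at P15 (permutation p = 0.782) and 0.424 in adults (permutation p = 0.0805), with adjusted values of 0.216, 0.782 and 0.216. Without the 2 libraries farthest from the median of Airn, r came to 0.292, 0.477 and 0.351 from P5 to adult. Within F1i and F1r r was -0.338 and 0.937 at P5, 0.406 and -0.422 at P15, and 0.407 and 0.749 in adults. The relation at P5 rests on those libraries, and its sign differs between the crosses. One of them, F1r replicate 5, had both the highest Airn level of P5, 5.0003 CPM, and the lowest Igf2r CAST share, 30.6%.

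No neighbour on chromosome 17 passed the test for a parental effect, which few genes passed at any age. Of all genes tested, 2.71% were called at P5, 0.742% at P15 and 2.71% in adults. At those shares so short a list would hold few or no calls, so the absence of calls does not set the neighbours apart. Of 23 genes listed for the region, 14 were tested for the parental effect at P5, 15 at P15 and 16 in adults, and Igf2r, at P15 and in adults with Airn, held all the calls by edgeR, as by DESeq2 and limma. Of the neighbours, 1 had an unadjusted edgeR p under 0.05, Slc22a3 in adults. The parental effect on Slc22a3, an organic cation transporter gene known to be silenced by Airn in mouse placenta, was estimated as 0.03 ± 0.04, -0.04 ± 0.04 and 0.06 ± 0.03 from P5 to adult (SE, edgeR adjusted p = 0.933, 1 and 0.563). Agpat4, a lysophosphatidic acid acyltransferase gene, had 0.12 ± 0.06 at P5 (adjusted p = 0.679). The other neighbours plotted lay between -0.082 and 0.203 at the ages tested, Mrpl18 at P5 and Tcp1 in adults having these outer values. Slc22a3 had a strain effect instead, with log2 CAST over C57 ratios of 0.39 ± 0.04, 0.42 ± 0.04 and 0.44 ± 0.03 from P5 to adult (edgeR adjusted p = 1.66e-13, 4.03e-12 and 2.74e-16). Qk, an RNA-binding protein gene of myelinating glia, and Wtap, a subunit of the RNA methyltransferase complex, also had higher CAST than C57 counts at the 3 ages.

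**Figure D5:**
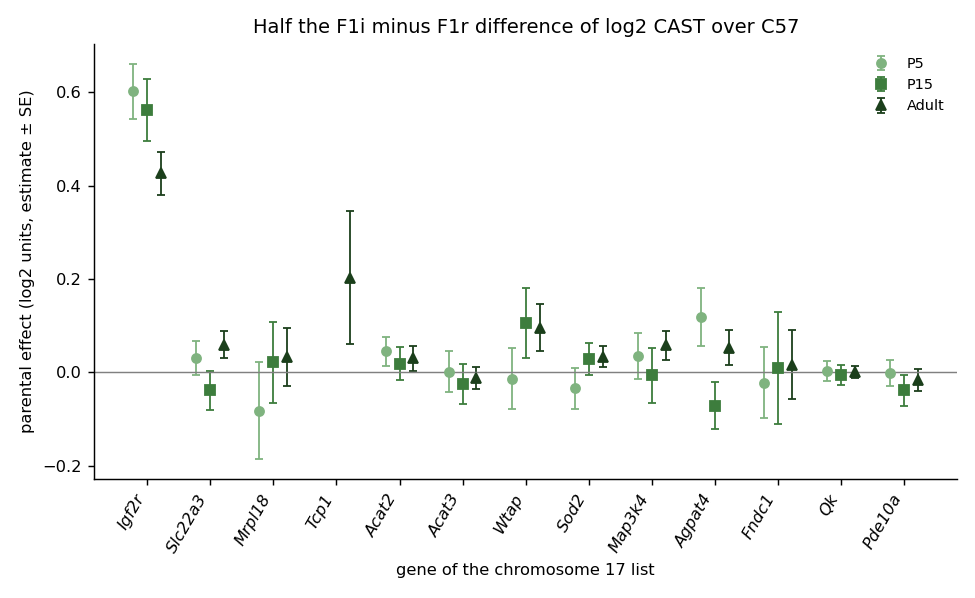
Parental effect in log2 units, as the Meg3-side over the other allele averaged over F1i and F1r, with its SE, for Igf2r and 12 tested neighbours of the chromosome 17 list at P5, P15 and in adults, with Airn left out of the plot. Igf2r lies at 0.60, 0.56 and 0.43, and its neighbours lie near 0.

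Genes known from textbooks as imprinted set the scale of these effects. Of those listed as maternally expressed, 8 of 9 tested were called toward the Meg3 side at P5, 7 of 8 at P15, and among adult libraries 6 of 7. The exception at each age was Grb10, a growth factor receptor adaptor known to be paternally expressed in mouse neurons, at -3.60 ± 0.06, -5.0 ± 0.06 and -5.67 ± 0.05. Of those listed as paternally expressed, 9 of 9 were called toward the other side at each age, with a median of -6.47, -6.45 and -7.09 on the log2 scale. That list does not hold Igf2, also known as paternally expressed, which was called toward the Meg3 side at each age. The median of the maternal list was 4.66, 4.90 and 5.18, far above the Igf2r effect. Meg3 is in the maternal list and defines the Meg3 side, so its call was fixed in advance. It enters the counts and medians of that list. Peg3, read above as the mirror of Meg3, is in the paternal list. Zim1, a zinc finger gene, had 3.88 ± 0.05, 4.86 ± 0.06 and 5.18 ± 0.05.

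The genes whose 3 parental effects were closest to those of Igf2r, among 248 genes called at 2 or more ages, were Gm20715, Klhdc10, Ppp1r9a, Arhgap36 and Phactr2. Arhgap36 is X-linked. Klhdc10, which neighbours the imprinted Mest gene, had effects of 0.85, 0.63 and 0.37 from P5 to adult, and Ppp1r9a, the gene of the synaptic actin-binding protein neurabin, 0.37, 0.53 and 0.55. Their Euclidean distances from Igf2r over the 3 ages were 0.261 and 0.262. No such list was made for Airn, which was not tested at P5.

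Ligands and partners of the receptor were read for the same effects. Igf2, the growth factor ligand that the receptor removes, was called toward the Meg3 side, at 2.06 ± 0.12 at P5, 1.47 ± 0.11 at P15 and 2.36 ± 0.10 in adults (SE, edgeR adjusted p = 2.13e-20, 3.27e-15 and 2.79e-20). H19, the maternally expressed noncoding RNA beside Igf2, had 5.25 ± 0.15 at P5 and 4.93 ± 0.37 at P15. In the list of ligands, receptors, binding proteins and adaptors, which also holds H19, 2 tested genes were called higher and 1 lower at each age. These were out of 16, 15 and 16 tested from P5 to adult. Of all genes, 2.71%, 0.742% and 2.71% were called in either direction at those ages. The calls at P5 and P15 were Igf2, H19 and Grb10. These were placed in the list as known imprinted genes or beside them, so its counts cannot be weighed against the shares of all genes. The counts for the lists that follow stand against the same shares. The adult calls were Igf2, Irs4, an X-linked insulin receptor substrate gene (0.27 ± 0.07), and Grb10. Of 20 tested genes of mannose 6-phosphate sorting edgeR called 0 at each age, with 0, 2 and 0 at an unadjusted p under 0.05, and DESeq2 and limma called 0. Of 19 silencing factors edgeR called 0 at each age, with 0, 0 and 1 at an unadjusted p under 0.05, and DESeq2 and limma called 0. Of 32 lysosomal hydrolase genes, edgeR called 1 higher and 0 lower at P5, 0 at P15, where 3 had an unadjusted p under 0.05 and DESeq2 and limma called 0, and 2 higher and 1 lower in adults, where DESeq2 called 0 and limma 2. Ids and Gla, X-linked genes of iduronate sulfatase and alpha-galactosidase, were called higher in adults, at 0.24 ± 0.05 and 0.32 ± 0.09, and Asah1, the acid ceramidase gene, lower at -0.08 ± 0.02. Ids was also the call at P5.

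With age, more genes of the IGF list fell than rose, and more lysosomal hydrolase genes rose than fell, in each pair of ages. Of all genes tested, 42.5% rose and 40.9% fell in P15 against P5. In adults 37% rose and 37.7% fell against P15, and 40.6% rose and 41.5% fell against P5. Sorting genes in P15 against P5 and silencing factors in adults against P15 lay near these shares. Whether any of the lists departs from these shares was not tested. Of 18 tested genes of the IGF list, 3 rose and 11 fell in P15 against P5, 4 rose and 8 fell in adults against P15, and 4 rose and 12 fell in adults against P5. H19 fell by 4.78 and Igf1, a ligand of the IGF receptor, by 1.90 on the log2 scale in adults against P5, and Igfbp4, which binds IGFs, fell by 2.09. Of 20 sorting genes, 10 rose and 8 fell in P15 against P5, 12 rose and 6 fell in adults against P15, and 10 rose and 4 fell in adults against P5. M6pr, the cation-dependent mannose 6-phosphate receptor that shares the sorting role of Igf2r, was higher by 1.44 ± 0.04 in adults than in P5 (SE, edgeR adjusted p = 5.42e-37), while Igf2r was lower. Gnptab, which encodes the enzyme that starts the mannose 6-phosphate tag, fell by 0.72. Of 32 lysosomal hydrolase genes, 20 rose and 8 fell in P15 against P5, 17 rose and 9 fell in adults against P15, and 24 rose and 4 fell in adults against P5, with a median of 0.356 in adults against P5, where the median of all genes was -0.005. Ctsb and Ctsz, which encode cathepsins, rose by 0.86 and 1.55. Of 20 silencing factors, 2 rose and 12 fell in P15 against P5, 7 rose and 8 fell in adults against P15, and 4 rose and 13 fell in adults against P5. Dnmt3a, a DNA methyltransferase, fell by 2.55 and Zfp57, which guards imprinted methylation, by 2.45 in adults against P5.

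The labels do not say that the libraries of a group came from separate animals or litters, so p-values measure the spread between these libraries. If libraries with the same first number in the adult labels came from 1 animal, the adult groups would hold 3 animals each. Summed that way, the parental effect of Igf2r was 0.43 with an edgeR adjusted p of 1.41e-06.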

How the data were processed

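RNA of dorsal raphe tissue was sequenced as 50 bp single-end reads of TruSeq libraries, per the labels' protocols, and aligned with Novoalign to mm9, per the submitters' processing notes. The deposited values are whole-number counts for each gene and allele, in 3 tables, 1 for each age. How reads were assigned to alleles, multiple matches and strand are not given in the sources used here. All 92 columns were matched to libraries by the names in the labels.

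Symbols were taken by Ensembl identifier from a GRCm38 annotation for 14969 of 15499 genes, and 91 genes without a count were not tested. Allele counts were tested with edgeR 4.0.16 in R 4.3.3 with a term for each library, the library total as size and a mean summed count of 20 or more. Totals were tested with TMM scaling and filterByExpr, with the spread of all 6 groups shared for age. P-values were adjusted by Benjamini-Hochberg over all genes tested. DESeq2 1.42.0, limma 3.58.1, other filters, other scaling and the replicate block were the alternatives. Shares were tested by permutation, exact between crosses and with 100000 resamples between ages. Intervals are 95%, and intervals and the floor of 3 counts cover counting error only, since the reads carry no molecular identifiers. The fits were tested on simulated data.

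Genes were named by a rule, up to 4 of each list with the smallest p, every tested gene of the chromosome 17 list, and the 5 most alike. Some genes under this rule are not reported here. The 2 genes, the lists and the tests were chosen with earlier results of these data known. Samples were grouped by the labels. Label numbers recur in both crosses. In adults, several libraries of each cross share a second number. The mean deviation of F1i libraries with a number went together with that of F1r libraries with the same number. The correlations were 0.523, 0.569 and 0.8 for the 3 numbers. These numbers thus group the adult libraries in blocks and do not pair single libraries. The main adult fits and the permutation tests did not use this grouping, and the fits with a replicate block did. No libraries of a group were identical.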

Additional observations from a re-analysis of the deposited data

Results flagged for a closer look

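Among 21 tests of a group's lowest or highest library for Igf2r and Airn, 3 stood apart by Dixon's 95% limit. For Igf2r, chance gives about 1 in 20 groups. Replicate 3 of P5 F1i had an Igf2r CAST share of 53.01%, the other 6 libraries lying between 58.33% and 61.59%. Replicate 4 of P15 F1r had an Airn CAST share of 97.06%, from 1 C57 count of 34, while the others had 100%. Library 2_3 of adult F1i had an Airn CAST share of 3.226%, from 1 CAST count of 31, while the others had 0%. In these 2 Airn groups every other library lay at 0% or 100%, so any single count from the other allele stands apart, and the rate of 1 in 20 does not apply.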

How the results depend on the processing

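For Igf2r and Airn, 159 values recomputed under the alternatives kept their direction and side of the threshold, and 5 did not. These leave out the strain effects of Airn and the changes of its parental effect with age, which rest on an allele at or near 0 counts. There limma differed from edgeR: its adjusted p was 0.027 against 0.227 for the adult strain effect and 0.0102 against 1 for the parental effect in adults against P5, and its parental change in P15 against P5 was -0.44 against 0.93, neither past the threshold. Airn fell by 0.49 in adult F1i against F1r with libraries summed over the first label number, now past the threshold. Igf2r in adults against P5 was -0.118 in F1i alone, no longer past it. The Meg3-side share of Igf2r in P15 against P5 was 2.804 points in F1r alone, opposite to both crosses together. With the log2 ratio of Airn over Igf2r counts in place of the Airn level, r was 0.588 at P5 and 0.57 in adults (permutation p adjusted to 0.0378 in both), now past the threshold, though Igf2r counts enter both measures. The causes were not tested.

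Counts of genes called moved more. For the parental effect DESeq2 called 120 genes at P5, against 327 by edgeR, and 137 in adults, where limma called 177 and edgeR 344. For changes of the parental effect limma called 36 genes in P15 against P5 and 26 in adults against P15, where edgeR called 19 and 16. For totals between crosses in adults edgeR called 15, DESeq2 56, edgeR with the second number as a block 77 and with summed libraries 306. For changes of the cross effect DESeq2 called 4, 12 and 3 genes in P15 against P5, adults against P15 and adults against P5, where edgeR called 2, 5 and 0, the last with 574 genes at an unadjusted p under 0.05.

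With the replicate number as a block the parental effects of Igf2r were 0.60, 0.56 and 0.42 from P5 to adult, and no call of Igf2r or Airn changed. At P5 and P15 same-numbered libraries did not deviate together, with correlations from -0.09 to 0.079 and from -0.412 to 0.751, and 1 of 7 correlated best with its own number at each age. Depth limits Airn most, with as few as 8 counts in a library.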
